A study of Mus musculus with 9 samples.

Results

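The transcripts described here are 32 genes of liver macrophages, taken by gene symbol from a fixed list out of the 23337 genes in the count tables. All 32 were found, with Emr1 being the older symbol of Adgre1, the gene of the F4/80 antigen. RNA was sequenced from whole livers of WT mice, and every group shared that genotype and was sampled in the fed state. The ND group ate a normal diet, the HFD group a 60% high-fat diet, and the HFD_HDCA group the same 60% high-fat diet with 0.25% hyodeoxycholic acid, a bile acid. Feeding began at 8 weeks of age and lasted 12 weeks, and each group had 3 libraries, numbered here as in the labels. The labels do not say whether the libraries came from separate cages or litters, so the p-values measure only the spread between these libraries. In RNA from whole liver, fewer macrophages and less RNA per macrophage cannot be told apart.

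Kupffer cells are the resident macrophages of the liver, lodged in the sinusoids, where they clear particles, bacteria and aged blood cells from the blood. They carry a set of surface receptors, among them the complement receptor VSIG4 and the lectin CLEC4F, and other macrophages largely lack CLEC4F. In fatty liver, monocyte-derived cells can enter the tissue, and a lipid-associated state marked by TREM2, GPNMB and CD9 has been described in lipid-laden macrophages. The members were read in 6 roles, with 8 pan-macrophage genes, 7 resident Kupffer genes, 6 lipid-associated genes, 3 chains of complement C1q, 5 receptors and adaptors, and 3 genes of the lysosome and phagosome.

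The promoters shown are those of Kupffer genes that parted from one another in a single HFD library, described below, and of Trem2. Those of Folr2, the remaining Kupffer gene, are not printed. Each is the 150 bases before the RefSeq transcription start in GRCm38.p6, on the strand of the gene, 5′ to 3′. Capitals mark the core letters bound by PU.1, the macrophage lineage factor (GAGGAA, on either strand), and the AP-1 letters TGANTCA, on either strand. The motifs were searched separately.
Marco, chr1:120505025-120505174, minus strand: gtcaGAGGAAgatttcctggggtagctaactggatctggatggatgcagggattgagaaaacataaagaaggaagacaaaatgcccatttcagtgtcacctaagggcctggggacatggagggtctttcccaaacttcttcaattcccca
Timd4, chr11:46810649-46810798, plus strand: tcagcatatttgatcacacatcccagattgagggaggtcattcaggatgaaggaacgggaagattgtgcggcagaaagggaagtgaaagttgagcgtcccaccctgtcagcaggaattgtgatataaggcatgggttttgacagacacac
Cd5l, chr3:87357731-87357880, plus strand: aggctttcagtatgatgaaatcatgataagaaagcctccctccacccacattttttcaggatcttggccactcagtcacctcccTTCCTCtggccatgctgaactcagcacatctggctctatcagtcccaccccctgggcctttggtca
Clec4f, chr6:83656117-83656266, minus strand: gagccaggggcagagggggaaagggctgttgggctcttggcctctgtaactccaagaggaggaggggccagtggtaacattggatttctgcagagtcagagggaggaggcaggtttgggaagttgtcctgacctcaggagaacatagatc
Vsig4, chrX:96293439-96293588, minus strand: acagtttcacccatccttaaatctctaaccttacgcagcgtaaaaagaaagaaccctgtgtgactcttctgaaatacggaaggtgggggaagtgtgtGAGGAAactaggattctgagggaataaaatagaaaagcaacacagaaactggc
Cd163, chr6:124304501-124304650, plus strand: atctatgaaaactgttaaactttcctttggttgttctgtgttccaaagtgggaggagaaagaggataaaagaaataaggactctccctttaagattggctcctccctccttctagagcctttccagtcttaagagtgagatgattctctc
Trem2, chr17:48346251-48346400, plus strand: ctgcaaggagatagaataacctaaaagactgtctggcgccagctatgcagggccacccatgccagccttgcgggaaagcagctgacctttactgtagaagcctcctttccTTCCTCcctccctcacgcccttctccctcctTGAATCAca
GAGGAA was present in the printed windows of Marco, Cd5l, Vsig4 and Trem2 and was not found in those of Timd4, Clec4f and Cd163. Over 250 bases before the start, 14 of 28 member windows held it, against 23.3% of 32841 promoters, and 26 of the 32 members had a window. TGANTCA was found in 6 of the 28 member windows (21.4%) and in 6.75% of all promoters. These are counts of letters only, and a window without them says nothing of the factor.

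Reads assigned to genes numbered 16994353 to 20509203 per library, at which 3 reads, the most that a count of 0 allows, came to 0.146 to 0.177 CPM, the count scaled to library size. These limits cover counting error only. Levels below are CPM scaled by trimmed mean of M-values (TMM) factors. The 5 hepatocyte markers summed to 76808 to 114480 CPM, and all 32 members had at least 1 read in every library. A pair of libraries stood apart in genes outside the list. HFD_HDCA 1 held Saa1, an acute phase protein gene, at 3371 CPM against 22.8 to 74.4 in the other 8 libraries, and HFD 1 held Dbp, a clock-controlled gene, at 85.8 CPM against 0.752 to 14.6. Their part in the values below was not tested.

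Livers fed the HFD differed from one another in macrophage transcripts far more than ND livers did. In HFD 2 nearly every macrophage and Kupffer transcript was low, in HFD 3 Marco and Emr1 were several times higher than in any other library, and HFD 1 lay close to ND for most members. HFD_HDCA 1 was high for most members, and the other HFD_HDCA libraries lay closer to ND. Of these, HFD_HDCA 3 was below all 3 ND libraries for 15 of 31 members (33.8% of all genes). Cd163, a Kupffer scavenger receptor, was the resident gene whose HFD and HFD_HDCA libraries all lay below the 3 ND libraries. Trem2 was the tested lipid-associated gene whose HFD and HFD_HDCA libraries all lay above them. For HFD_HDCA 3 the margin over ND 3 was narrow, and with 7 reads in each it came from the scaling alone.

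Of the 32 members, 31 passed the filter on low counts and entered the fit, and Gpnmb did not. No member passed an adjusted p of 0.05 in edgeR's quasi-likelihood test in any comparison. The background was 0.953% of 12587 genes called for HFD against ND, 3.4% for HFD_HDCA against HFD and 6.47% for HFD_HDCA against ND. By unadjusted p under 0.05, 1 member (Trem2) was higher and 1 (Cd163) lower in HFD than ND, against 6.67 and 4.83% of all genes. In HFD_HDCA against HFD, 1 member (Cd9) was higher and 0 were lower (11.6 and 10.4% of all genes), and in HFD_HDCA against ND, 2 (Trem2 and Mmp12) were higher and 0 lower (14.8 and 11.4%). DESeq2 called 1, 1 and 0 members in the 3 comparisons, where it called 3.08, 8.8 and 11.1% of all genes.

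Libraries of the groups compared did not overlap for 2 members higher (Itgax and Trem2) and 2 lower (Cd163 and Cd9) in HFD than ND, beside 10.9 and 9.2% of all genes. They did not overlap for 1 tested member higher (Cd9) and 0 lower in HFD_HDCA than HFD (11.3 and 11.1% of all genes). In HFD_HDCA against ND they did not overlap for 2 higher (Aif1 and Trem2) and 1 lower (Cd163), beside 17.8 and 16.1%. For Trem2 that rested on the scaling, since HFD_HDCA 3 and ND 3 had 7 reads each. Each of these counts is a smaller share of the 31 members than the share of all genes beside it. The median log2 fold change of the tested members was 0.17, 0.22 and 0.26 in the 3 comparisons, beside 0.02, 0.00 and 0.03 over all genes tested. The fold was positive for 18, 21 and 26 of the 31 members in HFD against ND, HFD_HDCA against HFD and HFD_HDCA against ND, beside 53.3, 49.7 and 53.0% of all genes, and for 4, 5 and 5 of the 5 tested lipid-associated genes. Single libraries moved these counts. Without HFD_HDCA 1 the fold was positive for 10 of 31 members in HFD_HDCA against HFD and 14 of 31 in HFD_HDCA against ND, with 2 and 5 of the 5 lipid-associated genes. Without HFD 3 it was positive for 7 of 32 members in HFD against ND and 30 of 32 in HFD_HDCA against HFD, and without HFD 2 for 26 and 14 of 31. The median standard error of a member was 0.46, 0.45 and 0.46, against 0.17 for all genes in each comparison. The 95% interval reached a 2-fold difference in both directions for 4, 6 and 6 of the 31 members, and a p above the threshold does not show that levels were alike. The comparisons share libraries, since ND, HFD and HFD_HDCA each enter more than 1 of them.

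**Figure D1:**
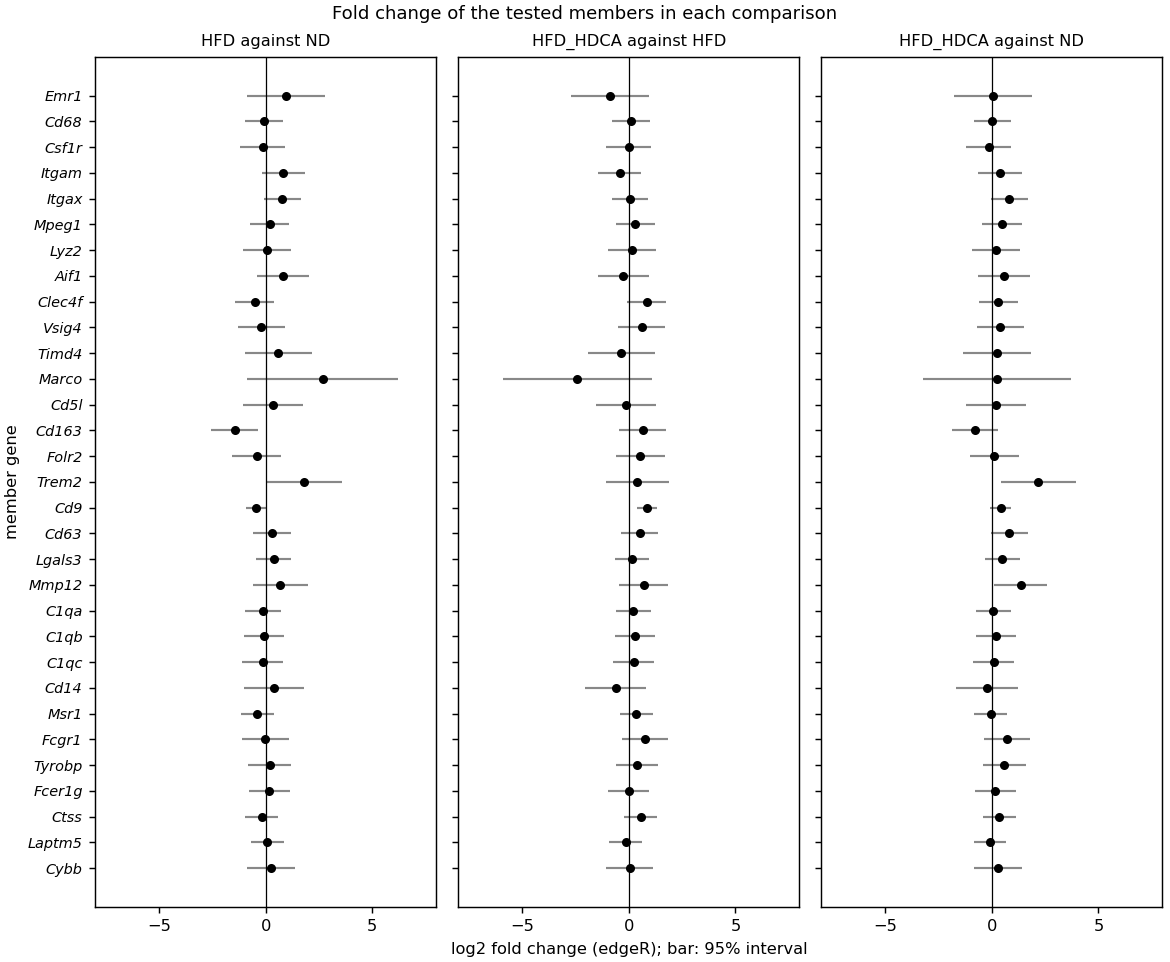
Log2 fold change of each of the 31 tested members (points) with its 95% interval (bars) from edgeR, in the 3 comparisons of diet groups (panels, 3 libraries a group). Most intervals cross 0, and that of Marco is the widest, from -0.87 to 6.22 for HFD against ND.

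Spread within the high-fat groups was larger for the members than for the median gene. The standard deviation of log2 CPM over the 3 HFD libraries had a median of 0.97 over the members and 0.19 over all genes tested, and 30 of 31 members lay above the latter. In the ND group the same medians were 0.15 and 0.13, with 16 of 31 members above. The HFD_HDCA group had medians of 0.48 and 0.22, with 31 of 31 above. These counts describe 3 libraries a group and carry no test.

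HFD 2 was below all 3 ND libraries for 27 of 31 members, while 32.1% of all genes were below in that library. It was the lowest of the 9 libraries for 26 of 31 members (12.6% of all genes). The 4 members above the ND range there were Itgax, Trem2, Cd63 and Mmp12. The median log2 ratio of the members to their ND mean was -1.31 in HFD 2, and it was -1.75 over the 7 Kupffer genes.

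HFD 3 was above all 3 ND libraries for 23 of 31 members (34% of all genes) and the highest of the 9 for 15 (11.7%). Its median log2 ratio to the ND mean was 0.61 over the members and 0.09 over the Kupffer genes, which ran from -2.25 for Cd163 to 4.22 for Marco. HFD_HDCA 1 was above the ND range for 28 of 31 members (41.3% of all genes) and the highest of the 9 for 15 (21.7%), with a median of 0.76. HFD 1, HFD_HDCA 2 and HFD_HDCA 3 had medians of 0.04, 0.07 and -0.16, the nearest to ND. HFD_HDCA 3 was still below all 3 ND libraries for 15 of 31 members (33.8% of all genes) and above them for 6 (37.1%). Its median over the 7 Kupffer genes was -0.48, with 5 of them below the ND range.

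**Figure D2:**
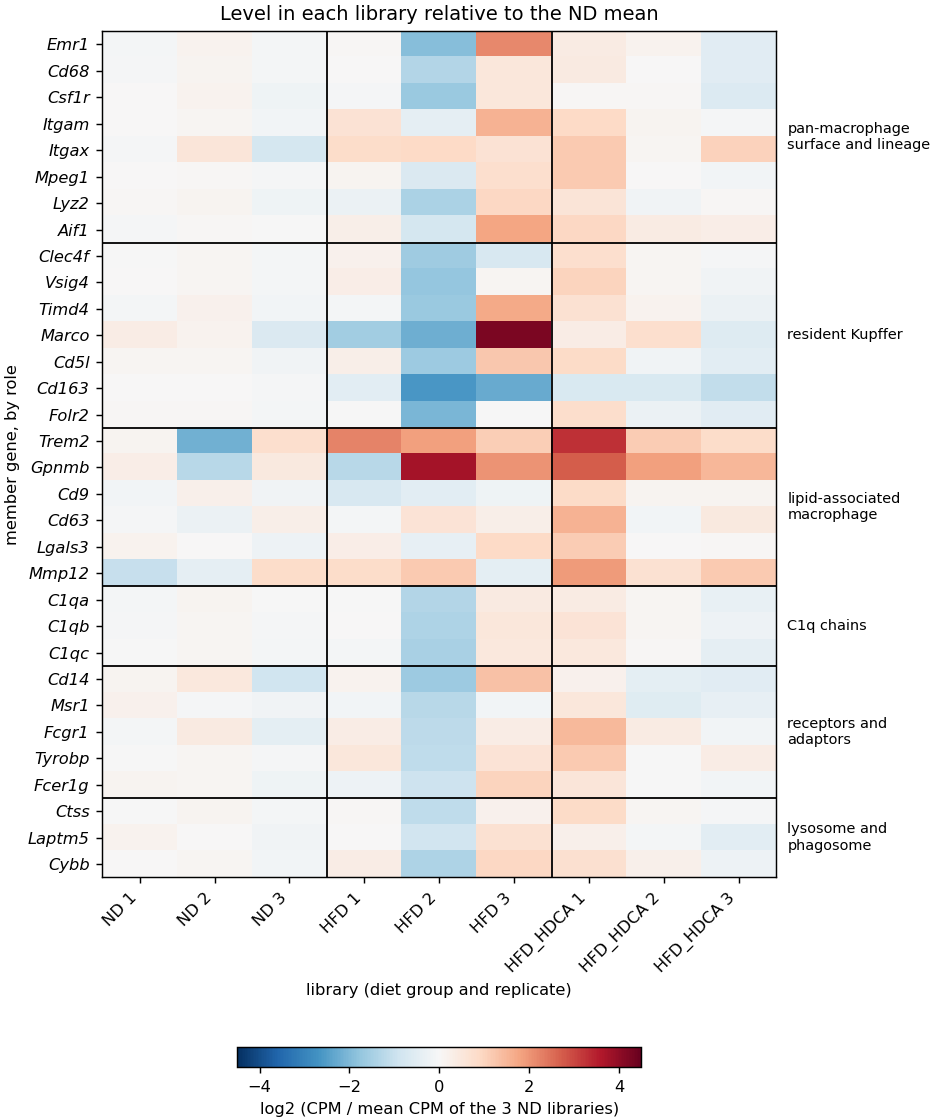
Log2 ratio of TMM-scaled CPM in each of the 9 libraries (columns) to the mean of the 3 ND libraries, for the 32 members (rows) grouped by role. HFD 2 is blue for 27 of the 31 tested members, HFD 3 is darkest for Marco at 4.22, and HFD_HDCA 1 is above ND for 28.

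The pan-macrophage genes mark macrophages of any origin. Emr1, on chromosome 17 from 57358686 to 57483529 (mm10), stood at 23.6, 28.3 and 23.8 CPM in ND 1 to 3, at 26.5, 6.72 and 112 CPM in HFD 1 to 3 and at 32.3, 28.5 and 17.7 CPM in HFD_HDCA 1 to 3. HFD held both the lowest and the highest of the 9 values, and its library 3 was 16.7 times its library 2. The log2 fold change of HFD against ND was 0.94 ± 0.80 (SE, adjusted p = 0.728), and it was -0.61 without HFD 3 (adjusted p = 0.774).

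Csf1r, the receptor for the growth factor CSF1 on which macrophages depend, stood at 70.9, 77.2 and 61.4 CPM in ND, at 67.4, 21.8 and 100.3 CPM in HFD and at 71.5, 72.5 and 45.1 CPM in HFD_HDCA, in the order of the library numbers. Cd68, a glycoprotein of late endosomes and lysosomes, was at 9.73, 11.1 and 9.66 CPM in ND, 10.4, 4.09 and 14.3 in HFD and 13.5, 10.2 and 7.10 in HFD_HDCA. Both were lowest in HFD 2 and highest in HFD 3, and the groups overlapped in every comparison.

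Mpeg1, which encodes the pore-forming perforin-2 of phagosomes, was at 70.8 to 75.8 CPM in ND, at 80.7, 47.2 and 124 in HFD 1 to 3 and at 167, 74.6 and 67.8 in HFD_HDCA 1 to 3. Lyz2, the macrophage lysozyme, was at 80.2 to 100.6 CPM in ND, 75.9, 34.2 and 174 in HFD and 137, 81.3 and 94.2 in HFD_HDCA; its near copy Lyz1 can share its reads, so this level is less certain. Aif1, the calcium-binding protein IBA1, was at 4.58 to 4.93 CPM in ND, 5.74, 2.78 and 16.4 in HFD and 8.97, 6.10 and 5.84 in HFD_HDCA. All 3 genes were lowest in HFD 2, and Aif1 was the member of this role whose HFD_HDCA libraries all lay above ND.

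The integrins of the role were scarce. Itgam, the CD11b chain shared by macrophages, monocytes and neutrophils, had 17 to 64 reads in the 9 libraries and ranged from 0.859 CPM in HFD 2 to 3.33 in HFD 3. Itgax, the CD11c chain of dendritic cells and some macrophages, stood at 0.677, 1.03 and 0.405 CPM in ND 1 to 3 and at 1.25, 1.31 and 1.09 CPM in HFD 1 to 3. The 3 HFD libraries lay above the 3 ND libraries for Itgax, including HFD 2, where the other pan-macrophage genes were below the ND range. Its log2 fold change was 0.78 ± 0.40 (SE, adjusted p = 0.510), from 7 to 26 reads per library.

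The resident Kupffer genes split by library. Clec4f, the Kupffer lectin on chromosome 6 from 83644542 to 83656116, stood at 126, 137 and 119 CPM in ND 1 to 3, at 145, 42.1 and 78.1 in HFD 1 to 3 and at 215, 136 and 121 in HFD_HDCA 1 to 3. A pair of HFD libraries lay below the ND range and the HFD_HDCA libraries lay within it or above it. Its log2 fold change was -0.53 ± 0.40 for HFD against ND (SE, adjusted p = 0.684) and 0.83 ± 0.40 for HFD_HDCA against HFD (adjusted p = 0.260). Without HFD 1 the latter was 1.39 with an adjusted p of 0.0409, and over all the alternatives its adjusted p ran up to 0.545.

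Vsig4, the complement receptor that captures opsonised particles, was at 38.1 to 43.3 CPM in ND, at 50.1, 12.2 and 43.5 in HFD and at 81.0, 43.3 and 36.5 in HFD_HDCA. Folr2, a folate receptor of tissue-resident macrophages, was at 14.5 to 15.9 CPM in ND, at 15.3, 3.74 and 15.3 in HFD and at 26.5, 12.7 and 10.7 in HFD_HDCA. For both, HFD 2 was far below every other library and HFD_HDCA 1 was the highest, and HFD 3 lay near ND.

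Marco, a scavenger receptor for bacteria and particles on chromosome 1 from 120474538 to 120505084, was the most variable member. That span is as deposited. RefSeq starts the gene, on the minus strand, at 120505024, so the promoter window printed above overlaps the span. Marco stood at 15.5, 13.6 and 7.75 CPM in ND 1 to 3, at 4.12, 2.68 and 228 CPM in HFD 1 to 3 and at 15.5, 20.5 and 8.12 CPM in HFD_HDCA 1 to 3. HFD 3 was 85.3 times HFD 2, while HFD 1 and HFD 2 were both below all other libraries. The log2 fold change of HFD against ND was 2.68 ± 1.51 (SE, adjusted p = 0.578) with all libraries and -1.85 without HFD 3 (adjusted p = 0.173), and DESeq2 gave it no adjusted p. For HFD_HDCA against HFD the values were -2.41 ± 1.5 (adjusted p = 0.389) and 2.12 without HFD 3 (adjusted p = 0.0714). On log2(FPKM + 0.1), with FPKM the level scaled by transcript length and library size, limma gave 0.37 for HFD against ND.

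Timd4, a receptor for phosphatidylserine on dying cells carried by long-resident Kupffer cells, stood at 9.06, 11.1 and 8.91 CPM in ND, at 9.21, 3.03 and 31.7 in HFD and at 15.7, 10.8 and 8.00 in HFD_HDCA. Cd5l, the secreted macrophage protein AIM, stood at 129, 129 and 110.5 CPM in ND, at 146, 40.0 and 282 in HFD and at 221, 112 and 88.3 in HFD_HDCA. Both were highest in HFD 3, next in HFD_HDCA 1 and lowest in HFD 2, and neither had an adjusted p under 0.805 in any comparison.

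Cd163, the receptor that takes up haemoglobin bound to haptoglobin, lies on chromosome 6 from 124304651 to 124330527. It stood at 29.6, 29.9 and 28.5 CPM in ND 1 to 3, at 21.1, 4.8 and 6.15 CPM in HFD 1 to 3 and at 18.4, 18.4 and 13.6 CPM in HFD_HDCA 1 to 3. All 6 libraries fed high fat lay below all 3 ND libraries, and HFD_HDCA lay between HFD 1 and the other HFD libraries. The log2 fold change was -1.46 ± 0.48 for HFD against ND (SE, 95% interval -2.56 to -0.37, adjusted p = 0.276), -0.80 ± 0.47 for HFD_HDCA against ND (adjusted p = 0.309) and 0.66 ± 0.48 for HFD_HDCA against HFD (adjusted p = 0.459).

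Whether Cd163 was called depended on the libraries and on the method. Without HFD 1 the same folds of Cd163 were -2.42 (adjusted p = 0.000392), -0.80 (adjusted p = 0.0117) and 1.62 (adjusted p = 0.00274). That edgeR fit called 1.77, 8.02 and 5.26% of all genes in that order. DESeq2 with all 9 libraries gave an adjusted p of 0.0214 for HFD against ND. When HFD was left out of the fit altogether, the adjusted p for HFD_HDCA against ND was 0.0124 (8.1% of all genes called). Over all the alternatives the adjusted p ran up to 0.552, 0.512 and 0.740 in HFD against ND, HFD_HDCA against ND and HFD_HDCA against HFD. The Kupffer genes were mixed in HFD 3. Cd163 was at a log2 ratio of -2.25 to its ND mean there and Clec4f at -0.705, both below the ND range. Vsig4 and Folr2 lay near their ND means. Marco and Timd4 were at 1.71 or more, and Cd5l was also above the ND range.

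**Figure D3:**
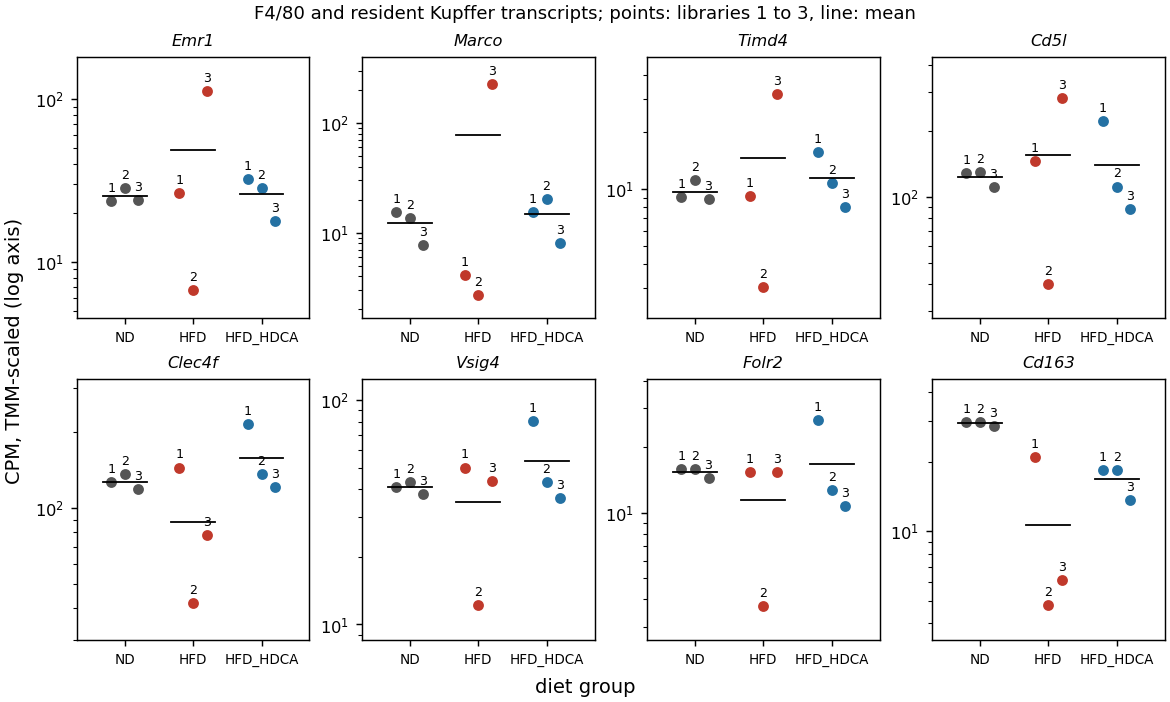
TMM-scaled CPM (log axis) of Emr1 and the 7 resident Kupffer genes in the 9 libraries, with the library number beside each point and a line at the group mean. HFD 2 is low in every panel, HFD 3 is high for Emr1, Marco (228 CPM), Timd4 and Cd5l, and all HFD and HFD_HDCA points of Cd163 are below those of ND.

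Ratios of length-scaled levels within a library show which Kupffer genes kept their proportions. The pairs were chosen after their values were seen and are given as a description, in FPKM from the deposited tables. Emr1 was 0.109 to 0.154 times the level of Clec4f in 8 libraries, HFD 2 included, and 1.05 times in HFD 3. Timd4 was 0.0722 to 0.0920 times Clec4f in the same 8 and 0.454 times in HFD 3. Cd5l was 0.897 to 1.27 times Clec4f in the 8 and 4.38 times in HFD 3. These 3 ratios were thus kept in HFD 2, where each gene was low, and were several times larger in HFD 3.

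Marco to Clec4f ran from 0.0347 in HFD 1 to 0.181 in HFD_HDCA 2 and reached 3.55 in HFD 3. Vsig4 was 0.525 to 0.680 times Clec4f in 8 libraries and 0.990 times in HFD 3. Cd163 was 0.114 to 0.125 times Clec4f in the ND libraries and 0.0418 to 0.0770 times in the HFD and HFD_HDCA libraries. The Cd163 ratio thus set the ND libraries apart from the HFD and HFD_HDCA libraries, which overlapped each other. The other ratios differed by library.

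The lipid-associated genes were mostly low or not specific to macrophages. Trem2, the lipid-sensing receptor on chromosome 17 from 48346401 to 48352273, had 5, 1 and 7 reads in ND 1 to 3, 21, 17 and 10 in HFD 1 to 3 and 39, 9 and 7 in HFD_HDCA 1 to 3. These came to 0.260, 0.0542 and 0.405 CPM, to 1.14, 0.859 and 0.521 CPM and to 2.36, 0.523 and 0.421 CPM. Every HFD and HFD_HDCA library lay above every ND library, HFD_HDCA 3 by a narrow margin over ND 3 and with the same number of reads. The order of HFD_HDCA 3 and ND 3 thus came from the scaling alone. The log2 fold change was 1.79 ± 0.80 for HFD against ND (SE, 95% interval 0.01 to 3.57, adjusted p = 0.431) and 2.18 ± 0.79 for HFD_HDCA against ND (interval 0.42 to 3.93, adjusted p = 0.119). Without HFD_HDCA 1 the latter was 0.97 (adjusted p = 0.442), and the fold of HFD_HDCA against HFD turned from 0.39 to -0.80. Leaving out single libraries moved the fold of HFD_HDCA against ND between 0.97 and 2.74, the highest without ND 3.

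Gpnmb, a glycoprotein of lysosomes on chromosome 6 from 49036518 to 49058182, had 3, 1 and 3 reads in ND, 1, 34 and 10 in HFD and 14, 8 and 6 in HFD_HDCA. It was highest in HFD 2, at 1.72 CPM, the library in which the Kupffer genes were lowest. HFD 1 with 1 read lay at the ND level, so HFD and ND overlapped, whereas the 3 HFD_HDCA libraries lay above ND. Gpnmb was not tested because of its low counts, and ND and HFD 1 held no more than the 3 reads that a count of 0 allows.

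Cd9, a tetraspanin made by many liver cell types, stood at 19.3, 24.5 and 18.9 CPM in ND, at 12.7, 14.9 and 18.1 in HFD and at 37.6, 23.0 and 22.6 in HFD_HDCA. The HFD libraries lay below all the others. The log2 fold change of HFD_HDCA against HFD was 0.86 ± 0.22 (SE, 95% interval 0.38 to 1.34), the smallest adjusted p of any member in any comparison (0.0570). Its adjusted p was 0.00707 with DESeq2, 0.0492 with no filter on low counts (2.48% of genes called), 0.0486 without HFD_HDCA 2 (5.06%) and up to 0.143 over all the alternatives. For HFD against ND the fold was -0.46 ± 0.22 (adjusted p = 0.472).

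Mmp12, the macrophage elastase, had 4 to 27 reads per library and stood at 0.208, 0.325 and 0.752 CPM in ND, at 0.758, 0.960 and 0.313 in HFD and at 1.64, 0.697 and 0.963 in HFD_HDCA. Cd63, a tetraspanin of late endosomes, was at 2.93 to 4.28 CPM in ND, 3.36, 5.35 and 4.27 in HFD and 10.5, 3.25 and 4.75 in HFD_HDCA. Lgals3, the galactoside-binding lectin galectin-3, was at 4.28 to 5.67 CPM in ND, 6.23, 3.94 and 9.27 in HFD and 11, 5.06 and 5.17 in HFD_HDCA. All 3 were highest in HFD_HDCA 1, and the groups overlapped in each comparison. The fold of Mmp12 for HFD_HDCA against ND was 1.36 ± 0.56 on the log2 scale (SE, interval 0.11 to 2.61, adjusted p = 0.159).

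**Figure D4:**
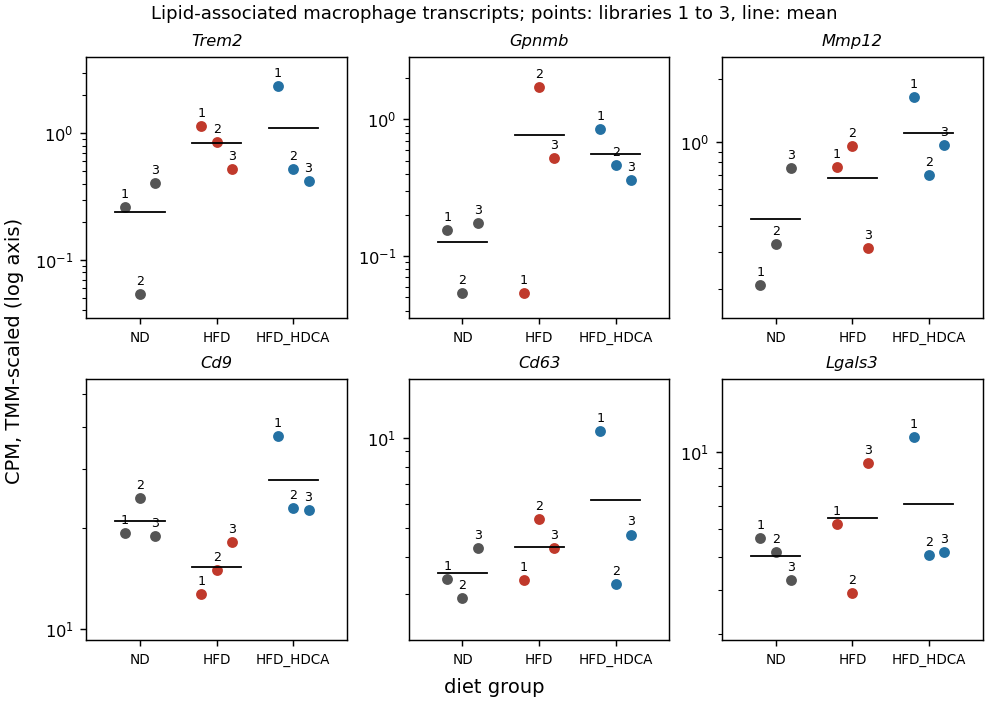
TMM-scaled CPM (log axis) of the 6 lipid-associated genes in the 9 libraries, with the library number beside each point and a line at the group mean. HFD_HDCA 1 is the highest library for 5 of the 6 genes, and HFD 2 is the highest for Gpnmb at 1.72 CPM.

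Resident and lipid-associated markers were compared by a score in each library, the mean of log2 CPM over the 6 lipid-associated genes less that over the 7 Kupffer genes, each gene taken relative to its mean over the 9 libraries. The score was -0.75, -1.03 and -0.20 in ND 1 to 3, -0.16, 2.15 and -0.75 in HFD 1 to 3 and 0.53, -0.15 and 0.37 in HFD_HDCA 1 to 3. HFD 2 was the highest of the 9 and HFD 3 was as low as the ND libraries. The HFD_HDCA libraries lay above all ND libraries, HFD_HDCA 2 by a narrow margin over ND 3. The low score of HFD 3 came with a Kupffer mean of 0.77. The Kupffer genes of HFD 3 had a median log2 ratio to the ND mean of 0.09, and Marco was the highest at 4.22. The next highest was Timd4 at 1.71, so the Kupffer mean of HFD 3, and with it the low score, leaned heavily on Marco. The score was not computed without Marco.

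The high score of HFD 2 came with a Kupffer mean of -1.74 and a lipid-associated mean of 0.41, while HFD_HDCA 1 was high in both, at 0.69 and 1.22. HFD differed from ND by 1.07, HFD_HDCA from ND by 0.91 and HFD_HDCA from HFD by -0.17, against a pooled standard deviation within groups of 0.94. No test was made, since the genes were chosen with results known, and the differences were close to that spread or under it. The standard deviation within HFD was 1.53, and without HFD 2 that group differed from ND by 0.20 and HFD_HDCA from HFD by 0.70. Without HFD 3 these differences were 1.65 and -0.75. HFD_HDCA differed from ND by 0.72 to 1.14 with single libraries left out, from under the spread to above it.

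**Figure D5:**
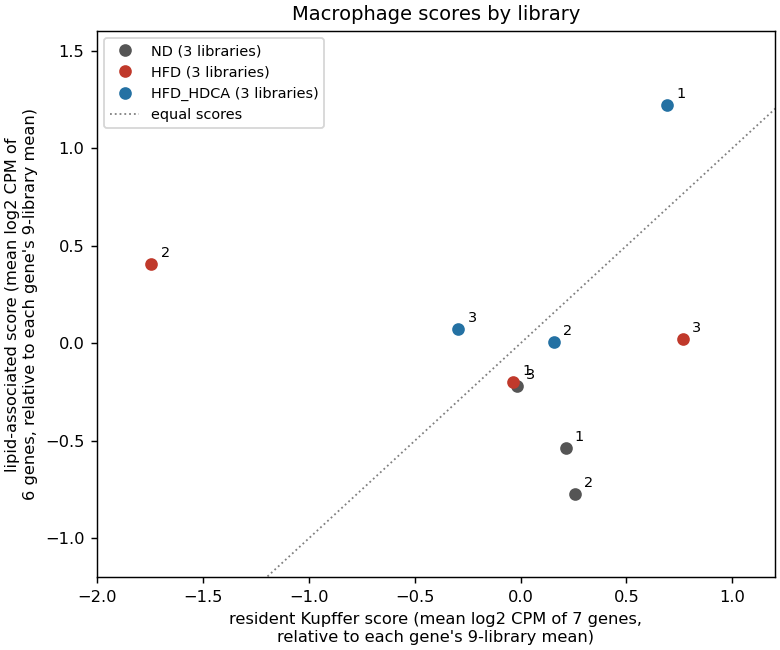
Lipid-associated score against resident Kupffer score (each a mean of log2 CPM relative to the mean of 9 libraries) in every library, coloured by diet, with a dotted line where they are equal. HFD 2 lies alone at a Kupffer score of -1.74. The 3 ND libraries lie below the line, as do HFD 1, HFD 3 and HFD_HDCA 2.

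The chains of C1q, the recognition unit of the classical complement pathway made in liver mainly by macrophages, lie side by side on chromosome 4 between 136880145 and 136898844. C1qb stood at 55.4, 61.5 and 55.1 CPM in ND, at 58.2, 22.1 and 82.3 in HFD and at 88.7, 60.6 and 48.7 in HFD_HDCA. C1qa was at 52.6 to 60.3 CPM in ND, 55.3, 22.2 and 73.8 in HFD and 72.5, 58.7 and 44.5 in HFD_HDCA, and C1qc at 53.8 to 62.0 CPM in ND, 54.8, 20.7 and 80.7 in HFD and 79.7, 59.7 and 43.6 in HFD_HDCA. The chains followed each other through all 9 libraries, with C1qa at 0.882 to 1.06 times and C1qb at 0.953 to 1.09 times the FPKM of C1qc. Their log2 fold changes were -0.15 to -0.08 for HFD against ND, and no adjusted p was under 0.727 in any comparison.

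Among receptors and adaptors, Tyrobp, the adaptor through which TREM2 signals, stood at 15.4 to 16.7 CPM in ND, at 22.8, 7.22 and 24.2 in HFD and at 35.6, 15.8 and 19.9 in HFD_HDCA. Fcer1g, the signalling chain shared by Fc receptors, was at 9.14 to 11.3 CPM in ND, 8.94, 5.51 and 20.9 in HFD and 15.1, 10.3 and 9.57 in HFD_HDCA. Fcgr1, the high-affinity receptor for IgG, was at 2.89 to 5.15 CPM in ND, 4.98, 1.72 and 4.90 in HFD and 10.8, 5.06 and 3.55 in HFD_HDCA. Tyrobp and Fcgr1 were highest in HFD_HDCA 1 and Fcer1g in HFD 3, while all 3 were lowest in HFD 2.

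Cd14, the co-receptor for bacterial lipopolysaccharide, was at 4.37, 5.58 and 2.20 CPM in ND, 4.55, 1.31 and 10.2 in HFD and 4.66, 2.96 and 2.83 in HFD_HDCA. Msr1, a scavenger receptor for modified lipoproteins, was at 18.2 to 23.1 CPM in ND, 18.6, 8.54 and 18.5 in HFD and 28.7, 13.9 and 15.5 in HFD_HDCA. Unlike Cd14, Msr1 was not above the ND range in HFD 3. The 5 genes of this role had median log2 fold changes of 0.17 for HFD against ND, 0.35 for HFD_HDCA against HFD and 0.15 for HFD_HDCA against ND, and the smallest adjusted p was 0.368.

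The lysosome and phagosome genes followed the same libraries. Ctss, the cathepsin that trims the invariant chain for antigen presentation, stood at 44.4 to 51.1 CPM in ND, at 48.7, 21.4 and 54.5 in HFD and at 86.1, 49.9 and 46.1 in HFD_HDCA. Laptm5, a lysosomal membrane protein of blood-derived cells, was at 18.3 to 22.7 CPM in ND, 20.6, 11.4 and 33.0 in HFD and 24.2, 19.5 and 14.7 in HFD_HDCA. Cybb, the catalytic subunit of the phagocyte NADPH oxidase, was at 18.7 to 21.3 CPM in ND, 25.6, 7.68 and 38.2 in HFD and 32.9, 23.8 and 17.0 in HFD_HDCA. All 3 were lowest in HFD 2, and no adjusted p was under 0.387.

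Levels can be set side by side only per length of transcript. By mean FPKM over the 9 libraries Lyz2 was the most abundant member at 78.1, followed by Cd5l at 54.6, C1qb at 48.1, C1qc at 47.3, C1qa at 44.6 and Clec4f at 39.0. Trem2 at 0.575, Itgam at 0.246, Itgax at 0.199, Mmp12 at 0.151 and Gpnmb at 0.0932 were the lowest. The lipid-associated genes Trem2, Mmp12 and Gpnmb thus lay at the foot of the order, far below the resident Kupffer genes, of which Cd163 was the lowest at 3.14.

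Other genes of the macrophage pathway were read from lists. Of 12 growth factor and transcription factor genes, 10 further Kupffer genes, 12 further lipid-associated genes and 8 tested genes of macrophage activation, 0 passed the adjusted threshold in any comparison. At an unadjusted p under 0.05, HFD against ND had 1 of the first list higher, 2 of the second lower, 2 of the third higher and 0 of the fourth, where 6.67% of all genes were higher and 4.83% lower. In HFD_HDCA against HFD the lists had 1 higher and 1 lower, 1 and 1, 1 and 1, and 0 and 0 (11.6 and 10.4% of all genes), and in HFD_HDCA against ND 2 and 1, 0 and 1, 2 and 0, and 0 and 0 (14.8 and 11.4%). DESeq2 called C6 lower in HFD than ND, Csf2rb, a chain of the GM-CSF receptor, higher in HFD_HDCA than HFD and Plin2 higher in HFD_HDCA than ND. Sfpi1, the gene of PU.1, stood at 4.22 to 5.31 CPM in ND, at 5.85, 2.37 and 9.85 in HFD and at 8.42, 5.64 and 4.27 in HFD_HDCA, and was thus lowest in HFD 2 and highest in HFD 3. Spic, a factor of iron-recycling macrophages, was at 0.759 to 1.67 CPM in ND, 1.79, 0.253 and 6.56 in HFD and 1.44 to 1.69 in HFD_HDCA. Both were chosen for naming after their values were seen.

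By the smallest p in their lists, Id3, a regulator of Kupffer cell development also made elsewhere in liver, was at 30.3 to 40.7 CPM in ND and at 30.1, 72.8 and 69.3 in HFD (adjusted p = 0.383). C6, a complement component made also by hepatocytes, was at 298 to 396 CPM in ND and at 93.8, 189.7 and 214 in HFD (log2 fold change -1.0, adjusted p = 0.220). Plin2, the lipid droplet coat protein, was at 492 to 718 CPM in ND and at 749, 1877 and 1691 in HFD_HDCA (log2 fold change 1.26, adjusted p = 0.0739). Id3, C6 and Plin2 are not confined to macrophages.

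Fabp4, a fatty acid-binding protein of fat cells, endothelium and macrophages, had the smallest p of the further lipid-associated genes for HFD against ND. It stood at 8.40 to 9.26 CPM in ND, at 11.4, 17.5 and 20.2 in HFD and at 15.3, 6.39 and 9.57 in HFD_HDCA, so that HFD lay above ND, with a log2 fold change of 0.91 ± 0.29 (SE, adjusted p = 0.245). Csf2rb was at 5.32 to 9.43 CPM in ND, at 6.28, 5.71 and 9.69 in HFD and at 12.7, 14.8 and 10.4 in HFD_HDCA, which lay above both other groups (adjusted p = 0.110 against HFD and 0.127 against ND). Hpgd, which breaks down prostaglandins, was at 215, 187 and 164 CPM in HFD and at 147, 98.1 and 143 in HFD_HDCA, all lower (adjusted p = 0.174).

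Among the activation genes no comparison had an adjusted p under 0.244. Mrc1, the mannose receptor, which endothelium of the sinusoids also makes, was at 67.8 to 75.2 CPM in ND and at 68.4, 28.8 and 66.9 in HFD. Il1b, the inflammatory cytokine interleukin-1 beta, was at 17.2, 0.707 and 8.70 CPM in HFD and at 2.18 to 4.33 in HFD_HDCA. Tnf, the cytokine tumour necrosis factor, had 2 to 21 reads per library, at 0.116 to 0.379 CPM in ND and 0.349 to 0.842 in HFD_HDCA. HFD 2 held the lowest value of the 9 for each of these 3 genes.

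Of 12 genes of monocyte recruitment 7 were tested. At an adjusted p under 0.05 in edgeR, 1 of them rose and 0 fell in HFD_HDCA against ND, where 6.47% of all genes were called. Ccr2, the chemokine receptor by which monocytes leave the marrow, stood at 0.833, 0.976 and 1.45 CPM in ND 1 to 3, at 1.52, 3.13 and 2.6 in HFD 1 to 3 and at 3.63, 1.92 and 3.01 in HFD_HDCA 1 to 3. All 6 libraries fed high fat lay above ND. The log2 fold change of HFD_HDCA against ND was 1.39 (adjusted p = 0.0498), and that call was lost under most of the alternatives, with an adjusted p up to 0.184. For HFD against ND, 5 of the 7 were higher at an unadjusted p under 0.05 (6.67% of all genes) and 0 passed the adjusted threshold, with 0.229 for Ccr2 (log2 fold change 1.16). For HFD_HDCA against ND 3 of the 7 were higher at that unadjusted p (14.8% of all genes). For HFD_HDCA against HFD 0 were higher or lower, and Plac8, the gene of smallest p, was at 21.1 CPM in HFD_HDCA 1 against 4.53 to 8.6 in the other 8 libraries (adjusted p = 0.344).

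Markers of other cells moved in some of the same libraries. The 8 markers of sinusoidal endothelium summed to 192 CPM in HFD 2 against 338 and 380.2 in the other HFD libraries and 341 to 387 in ND, and all 8 were lowest in HFD 2. The 5 neutrophil markers found summed to 17.1 CPM in HFD_HDCA 1 and to 1.82 to 6.88 elsewhere. The 5 B cell markers summed to 6.26 to 10.1 CPM in HFD_HDCA, 2.68 to 5.89 in HFD and 3.41 to 5.15 in ND. The part of these cells in the member values was not tested.

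The 7 stellate cell markers summed to 449 CPM in HFD 2 against 469 to 548 in ND and 546 and 553 in the other HFD libraries, and HFD_HDCA 3 was the lowest of the 9 at 442. The marker of highest mean CPM was Dcn for stellate cells, Clec4g for endothelium, Csf3r for neutrophils, Cd22 for B cells, Lcp1 for leukocytes, Cd4 for T cells, Il2rb for NK cells, Zbtb46 for dendritic cells, Sox9 for cholangiocytes and Alb for hepatocytes. The 5 pan-leukocyte markers summed to 127 CPM in HFD 2 and to 201 in HFD 3, against 165 to 169 in ND. Lcp1, an actin bundler among them, fell by 0.50 on the log2 scale in HFD_HDCA against ND. Its adjusted p in edgeR was 0.0196, and it ran up to 0.0818 over the alternatives. The median log2 fold change of the 5 in that comparison was 0.18. At an unadjusted p under 0.05, 0 of them were higher and 1 (Lcp1) was lower (14.8 and 11.4% of all genes). Markers of T cells, NK cells and dendritic cells were scarce, at sums of at most 5.27, 4.79 and 10.1 CPM. Those of cholangiocytes summed to 5.20 to 15.2 CPM and were highest in HFD 2. Of the 5 hepatocyte markers, the urea cycle gene Cps1 fell in HFD_HDCA against ND, by 1.11 on the log2 scale (adjusted p = 0.00619). The median log2 fold change of the 5 was 0.29. At an unadjusted p under 0.05, 3 of them were higher and 1 (Cps1) was lower (14.8 and 11.4% of all genes).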

How the data were processed

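Liver RNA of 9 libraries was analysed, 3 each on ND, HFD and HFD_HDCA, grouped by the labels. Per the labels, libraries were made with a TruSeq RNA kit. The authors deposited raw counts per gene from HTSeq, whose version and strand setting are not given in the sources used here. The count tables carry the word antisense in their names, which may refer to a strand setting, and the labels do not say whether the kit marks strand, so whether reads of overlapping genes were told apart is not known. Per the file headers the other deposited tables hold FPKM by gene. The submitters' processing notes list mm10 as the build, TopHat 1.3.2 as a tool and Cufflinks 2.0.2 as another, with no role given.

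Counts were fitted in R 4.3.3 with edgeR 4.0.16 (TMM factors, filterByExpr with a minimum count of 10, robust quasi-likelihood F test, all 9 libraries in a single model), and p-values were two-sided and adjusted by Benjamini-Hochberg over the 12587 genes tested. Rows of unassigned reads were left out, and genes held 63.9 to 72.2% of the reads of a file. Standard errors are those implied by the F statistic. The scripts were tested on simulated data. An exact permutation test of 3 libraries against 3 cannot go below p = 0.1. No library was a copy of another in its group, where chi-square over degrees of freedom was 11.1 to 90.8.

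Alternatives were RLE factors, library totals, no filter, DESeq2 1.42.0, limma 3.58.1 on log2(FPKM + 0.1), with and without a filter at a mean of 0.1, and on log2(FPKM + 1), only the groups compared, a replicate block, and libraries left out. For the scores the prior count in log2 CPM was 2, with 0.5 and 5 as alternatives. All members were named, and of the other gene lists every gene called, the gene of smallest p in each comparison and 2 chosen after their values were seen, which the text marks. For marker lists the sums, the genes called and the marker of highest mean CPM are given, and genes of smallest p are not. Spi1 was matched to Sfpi1 through RefSeq synonyms. The members, lists and promoters were chosen with earlier results of these data known. Of the FPKM tables, 50 symbols absent from some tables were left out.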

Additional observations from a re-analysis of the deposited data

How the results depend on the processing

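The fits of only the groups compared used 6 libraries, and those that left libraries out used 7 or 8. DESeq2 called 380, 1085 and 1398 genes in HFD against ND, HFD_HDCA against HFD and HFD_HDCA against ND, beside 120, 428 and 815 in edgeR, and 1 member in each of the first 2 comparisons (Cd163 and Cd9). With no filter 1 member (Cd9) was called in HFD_HDCA against HFD, beside 2.48% of all genes. With only the groups compared, 134 genes were called in HFD_HDCA against HFD, and 1 member (Cd163) in HFD_HDCA against ND, beside 8.1% of all genes. Without HFD 1 and HFD_HDCA 1, 576, 977 and 1157 of 12685 genes were called in the 3 comparisons. In each of them 1 of 30 members (Cd163) was called. The cause of these shifts was not tested.

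Leaving out 1 library at a time gave 32 to 226 genes called in HFD against ND (fewest without ND 3, most without HFD 1), 127 to 672 in HFD_HDCA against HFD (without HFD_HDCA 3 and without HFD 1) and 196 to 1213 in HFD_HDCA against ND (without ND 1 and without HFD_HDCA 2). Counts of HFD against ND also moved by over 1.5 times without ND 1 (36), ND 2 (44), HFD 2 (40), HFD 3 (34) and HFD_HDCA 1 (208). Those of HFD_HDCA against HFD did so without ND 1 (217), ND 2 (242), HFD 2 (199), HFD 3 (153) and HFD_HDCA 2 (647), and those of HFD_HDCA against ND without ND 2 (344), ND 3 (332) and HFD_HDCA 3 (308). Members called ran from 0 to 1, 0 to 2 and 0 to 1, with Cd163 and Clec4f called in HFD_HDCA against HFD without HFD 1.

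Directions turned with single libraries left out, where the log2 fold changes ran as follows. In HFD against ND they ran from -0.53 to 0.21 for C1qa and from -0.44 to 0.12 for Ctss (turned without HFD 2), from -0.61 to 1.46 for Emr1 and from -1.85 to 3.24 for Marco (turned without HFD 3). In HFD_HDCA against HFD they ran from -0.090 to 0.72 for C1qb (without HFD 2), from -1.41 to 0.66 for Emr1 and -2.98 to 2.12 for Marco (without HFD 3), and from -0.80 to 0.77 for Trem2 (without HFD_HDCA 1). In HFD_HDCA against ND they ran from -0.072 to 0.38 for C1qb (without HFD_HDCA 1), from -0.13 to 0.27 for Emr1 (lowest without HFD_HDCA 1, and -0.0056 without HFD_HDCA 2) and from -0.050 to 0.55 for Marco (without HFD_HDCA 2). Trem2 was at -0.057 in HFD_HDCA against HFD on log2(FPKM + 0.1), with or without the filter. Emr1 was at -0.037 in HFD_HDCA against ND with library totals, and at -0.13 without HFD 1 and HFD_HDCA 1, where C1qb was at -0.071. Over all tested members and alternatives the direction was kept in 557 of 587, 523 of 588 and 543 of 587 values of the 3 comparisons. With library totals the fold was positive for 18 of 31 members in HFD_HDCA against HFD and 22 of 31 in HFD_HDCA against ND, where 39.3 and 44.0% of all genes were positive.

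Replicate numbers share only a number, since deviations of same-numbered libraries correlated between -0.15 and 0.15. With a replicate block 82, 328 and 715 genes and 0 members were called in the 3 comparisons. The block ended the call of Ccr2 and added Plin2 in HFD_HDCA against ND. With single libraries left out the score difference ran from 0.20 to 1.65 for HFD against ND, from -0.75 to 0.70 for HFD_HDCA against HFD and from 0.72 to 1.14 for HFD_HDCA against ND. The latter was also above the pooled standard deviation of 0.94 with a prior count of 0.5 (1.08) and without Mmp12, Cd9 and Cd63 (1.11), and HFD against ND was below it with a prior count of 5 and on log2(FPKM + 0.1) (0.92 in both). At 1 to 39 reads per library, as for Trem2, Mmp12 and Gpnmb, counting error limits any difference.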
